A study of Mus musculus with 12 samples.

Results

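The change in gene expression of fibroblasts between medium from ferroptotic cells and control medium was set against the same change in hepatoma cells. The quantity of interest for each gene was the difference of responses, that is the log2 change in fibroblasts minus the log2 change in hepatoma cells. It was read for the 11059 genes, of 55487 in the count table, whose mean was at least 1 CPM (reads per 1000000 reads assigned to genes) over the 6 libraries of each cell type. A positive difference means a larger rise or a smaller fall in the fibroblasts. Of these 11059 genes 9839 are protein-coding, and 238 lay below 1 CPM in at least 1 of the 4 groups. The gene just inside the limit, Glt28d2, had a lower mean of 1.0004 CPM and a difference of -0.04, and AC140316.1, just outside it, had 0.998 CPM and -0.01.

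RNA sequencing covered 12 mouse libraries in 4 groups of 3. Hepa1 is an established mouse hepatoma line, labelled wild type. The second recipient was primary embryonic fibroblasts of the mouse (MEFs) with a Bach1 knockout (Bach1-/-). Each was kept for 4 days in a supernatant that had stood 48 h, with 10% fetal bovine serum, on immortalised MEFs, which were either control cells or cells made ferroptotic by restoring Bach1. The medium was renewed every day, and all 4 groups received 2-mercaptoethanol at 0.1 mM and vitamin E at 0.4 mg/mL. Nonessential amino acids and penicillin-streptomycin, each at 1%, were also the same in all groups. The cell type, the use of a line or of primary cells, and the Bach1 genotype differ together between the recipients and cannot be told apart in any difference below. The labels do not call the replicates separate cultures; the p-values therefore speak only for the scatter of these libraries, and that scatter may be technical.

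Ferroptosis is cell death driven by iron-dependent peroxidation of membrane lipids. Cells hold it back by importing cystine for glutathione, by reducing lipid peroxides with GPX4 and by storing iron in ferritin. BACH1 is a heme-binding transcription repressor that competes with the activator NRF2 at antioxidant response elements, DNA motifs found at genes of heme breakdown, iron storage and glutathione synthesis. Fibroblasts build connective tissue matrix, and hepatocytes secrete plasma proteins such as albumin and transferrin.

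Bach1 itself stood at 101, 97.3 and 89.9 normalised CPM in MEFs in control and 89.7, 91.7 and 84.9 in ferroptotic medium, and at 116, 123 and 119 and 102, 93.2 and 99.3 in Hepa1. Normalised CPM are per 1000000 reads after TMM scaling, which evens out the libraries. The TMM factors were 1.18 to 1.24 in Hepa1 and 0.797 to 0.850 in MEFs. Levels compared between the cell types therefore depend on this scaling. Reads over the whole gene do not check the deletion, because the labels do not name the deleted exons. Its difference of responses was 0.16 ± 0.06 (log2, adjusted p = 0.0242 in edgeR), and the call was lost without the second Hepa1 library of either medium, the third MEF control or the second MEF ferroptotic library, with adjusted p from 0.0526 to 0.106. Of 15 fibroblast markers, all were at 1 CPM or more in MEFs in control medium, and 5 of 18 hepatocyte markers were in Hepa1. Hepa1 in control medium also had 7 of the 15 fibroblast markers at that level, summing to 4166 to 4678 CPM against 503.5 to 519.5 CPM for its hepatocyte markers. Alb gave 0 reads in MEFs, and Apoa1, Apoc3, Ttr, Serpina1a, Cyp2e1 and Ambp, all defining hepatocyte genes, gave 0 reads in both Hepa1 groups. Libraries held 18582713 to 23397981 reads assigned to genes, and a floor of 3 reads equals 0.128 to 0.161 CPM. The third Hepa1 library in ferroptotic medium stood apart: over 36 genes abundant in MEFs and near 0 in Hepa1 in control medium it held 0.116% of the MEF level, against 0.00426 to 0.0153% in the other Hepa1 libraries.

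Differences were common. With edgeR's quasi-likelihood test and a Benjamini-Hochberg adjusted p under 0.05 (a call, here and below), 6263 of the 11059 genes differed between the cell types in their response, where 44.2% of all 15627 genes tested were called. In 3009 genes the change was higher in MEFs and in 3254 it was lower, against 20.9% and 23.3% of all genes tested. At a size of at least 1.5-fold the difference was called in 878 genes as higher and 997 as lower in MEFs, against 7.27% and 8.88%. At any size, 2256 genes were called in both cell types in the same direction and 1721 in different directions, where 15.9% and 11.9% of all genes tested were. The median size of the change, without regard to sign, was 0.17 on the log2 scale in MEFs and 0.20 in Hepa1.

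Responses of at least 1.5-fold overlapped in part. In MEFs 553 genes rose and 448 fell, where 8.75% and 5.64% of all genes tested did so. Without scaling beyond the library totals these counts were 692 and 338. In Hepa1 721 genes rose and 562 fell, against 8.72% and 5.3%. Of the genes that rose in MEFs, 36.0% also rose in Hepa1, and these were 27.6% of those that rose in Hepa1. Of the genes that fell in MEFs, 25.2% also fell in Hepa1, and these were 20.1% of those that fell in Hepa1. Across the 11059 genes the 2 changes had a Pearson correlation of 0.27 and a Spearman correlation of 0.13, and 53.2% had the same sign. This is a description across genes, which are not independent replicates, and each change rests on its own 6 libraries.

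The genes were sorted into classes by the calls in each cell type. A shared response was called in both cell types in the same direction with at least 1.5-fold in each. An opposite response met the same limits in different directions. A one-sided response was called at 1.5-fold or more in the first cell type, lay under 1.2-fold in the other, and had a called difference. There were 199 genes shared up (2.15% of all genes tested fell in that class), 113 shared down (0.941%), 46 up in MEFs and down in Hepa1 (0.461%) and 40 down in MEFs and up in Hepa1 (0.634%). One-sided genes numbered 158 up in MEFs (1.32%), 164 down in MEFs (1.21%), 253 up in Hepa1 (2.18%) and 242 down in Hepa1 (1.68%). Shared genes were 312 in all (3.09%) and opposite genes 86 (1.09%). Among the shared genes the difference of responses was called in 166 (1.31%) and not in 146 (1.79%). The other 9844 genes met none of these limits. A gene below 1 CPM in 1 medium could pass the level limit through the other medium. With 1 CPM required in each of the 4 groups, shared up held 147 genes and shared down 104. The opposite classes then held 43 genes with MEFs up and 29 with MEFs down. The one-sided classes held 149, 160, 238 and 241, in the order above.

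**Figure D1:**
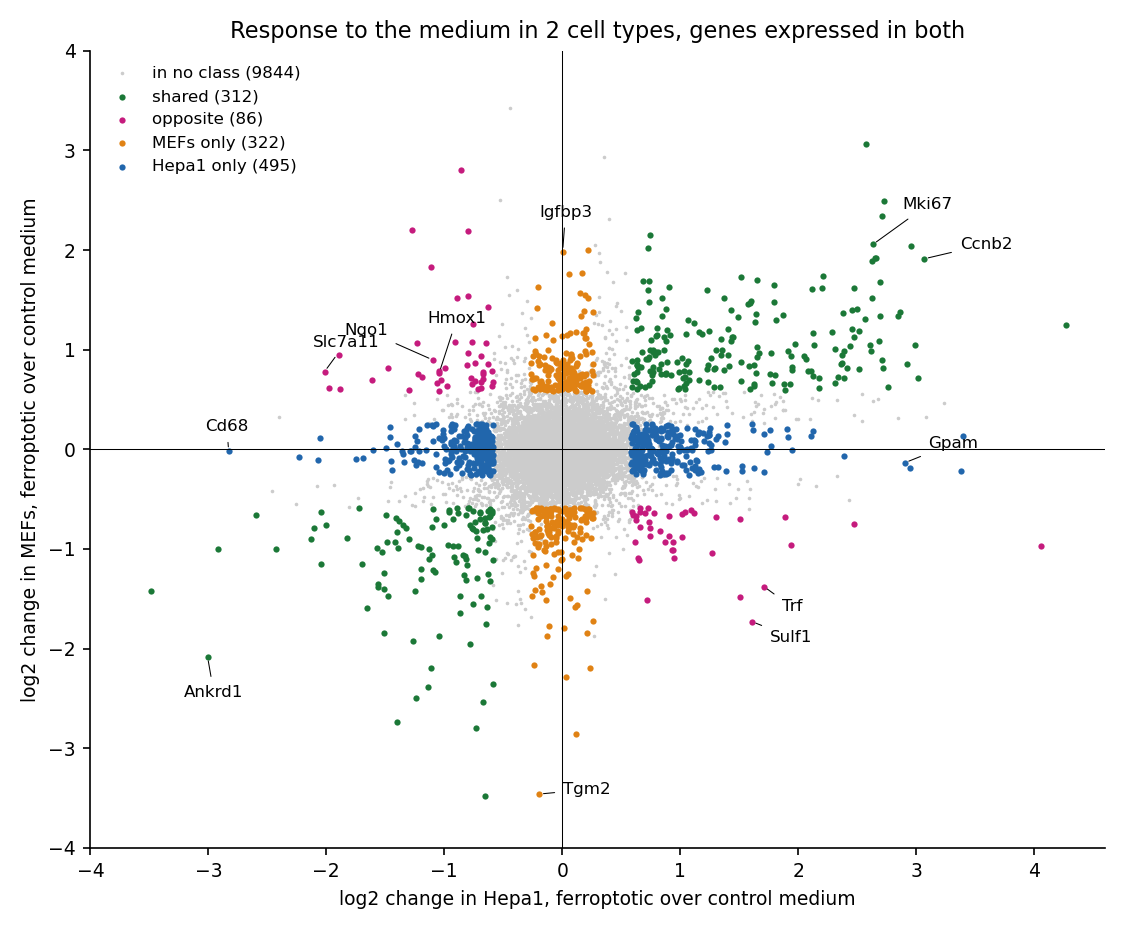
Log2 change in ferroptotic over control medium for each of the 11059 genes, in Hepa1 on the x axis and in MEFs on the y axis, with 1 point a gene and colours for the 4 kinds of response. The 86 opposite genes lie in the upper left and lower right of the plot, and the 312 shared genes reach further to the right, up to 4.27 in Hepa1, than upward, up to 3.07 in MEFs.

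The 46 genes that rose in MEFs and fell in Hepa1 included genes of heme breakdown, cystine import and quinone reduction. Hmox1 encodes heme oxygenase 1, which opens the heme ring and frees its iron (chr8:75093621-75100589, plus strand, GRCm38). In MEFs its normalised CPM were 2278, 2294 and 2371 in control and 3948, 3858 and 4019 in ferroptotic medium. In Hepa1 they were 577, 603 and 625 in control and 303, 289 and 284 in ferroptotic medium. The 3 ferroptotic libraries lay above all 3 controls in MEFs and below all 3 in Hepa1, with log2 changes of 0.77 ± 0.04 and -1.04 ± 0.04. Here and below, ± is the SE for a log2 value and the SD for CPM, with n = 3 per group. The difference for Hmox1 was 1.81 ± 0.05 (adjusted p = 4.09e-29, edgeR). Libraries of the 2 media separated in both cell types, in any direction, in 4678 of the 11059 genes.

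Slc7a11 encodes the light chain of the cystine and glutamate exchanger that supplies cysteine for glutathione (chr3:49892526-50443614, minus strand, GRCm38). It was abundant in Hepa1, with 435, 521 and 473 normalised CPM in control and 127, 115 and 111 in ferroptotic medium. In MEFs it was low, with 2.78, 4.48 and 5.55 in control and 6.95, 6.76 and 8.2 in ferroptotic medium. No library of a ferroptotic group overlapped its control group in either cell type, and the difference of responses was 2.79 ± 0.17 (adjusted p = 3.87e-18). Nqo1, an NAD(P)H quinone reductase, went from 11.8 ± 0.633 to 22.1 ± 1.45 normalised CPM in MEFs and from 33 ± 0.527 to 15.4 ± 1.01 in Hepa1. In normalised CPM its ferroptotic level in MEFs lay between the Hepa1 levels in the 2 media, which depends on the TMM scaling.

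The promoter of Slc7a11 is shown for core letters of the motif that NRF2 and BACH1 bind, and binding was not tested. The 250 bases before its start (chr3:50443614-50443863, minus strand, RefSeq on GRCm38.p6) hold 2 matches to the antioxidant response element core TGANNNNGC, in capitals, beginning 97 and 45 bases before the start; both are on the strand opposite to the gene.
Slc7a11: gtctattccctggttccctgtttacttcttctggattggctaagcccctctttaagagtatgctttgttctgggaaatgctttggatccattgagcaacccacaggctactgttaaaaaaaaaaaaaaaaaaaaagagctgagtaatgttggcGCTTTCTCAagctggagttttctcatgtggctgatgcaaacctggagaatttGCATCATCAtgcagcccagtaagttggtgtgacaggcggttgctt
The core was searched on both strands, and it can overlap an AP-1 site (TGANTCA). The match 45 bases before the start also overlaps TGATGNAA, the amino acid response element core, read on the same strand. The letters TGANNNNGC occurred in 12 of 24 promoters of the NRF2 and BACH1 list described next. They were in 37.0% of the 8044 promoters matched to the 11059 genes and in 35.1% of all 27025 promoters. Among the genes up in MEFs and down in Hepa1 the share was 25.7% of 35 promoters.

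Of 28 known NRF2 and BACH1 targets among these genes, 18 rose and 5 fell in MEFs at any size, where 24.5% and 24.4% of all genes tested did. In Hepa1 8 rose and 18 fell, where 26% and 24.6% did. The difference was called higher in MEFs for 22 and lower for 4, with a median of 0.50 beside -0.03 over all genes tested. Abcc4, an export pump for conjugates and cyclic nucleotides, rose in MEFs (0.87) and fell in Hepa1 (-0.48). Taldo1, an enzyme of the pentose phosphate pathway, changed by -0.02 in MEFs, which was not called, and fell by 1.36 in Hepa1. Gclm, the modifier subunit of the enzyme that starts glutathione synthesis, likewise gave 0.01 in MEFs, not called, and -0.60 in Hepa1. Among the exceptions, chosen after their values were seen, G6pdx, which makes NADPH, rose further in Hepa1 (0.72) than in MEFs (0.12), and Txn1, a thiol reductant, fell in MEFs by 0.48.

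Iron genes did not move as a block. Of 22, 8 had a difference called higher and 5 lower in MEFs, with a median of 0.04. For this list and those below, the shares over all 11059 genes were 27.2% called higher and 29.4% lower. At any size 24.8% of the 11059 genes rose and 28.1% fell in MEFs, and 30.2% and 31.7% did in Hepa1. Tfrc, the receptor that takes up transferrin-bound iron, fell in Hepa1 from 152 ± 11.1 to 65.6 ± 3 normalised CPM and rose slightly in MEFs from 32.1 ± 1.41 to 36.9 ± 0.202. Slc40a1, the iron exporter ferroportin, rose in both, by 1.53 in MEFs and 0.31 in Hepa1. Slc25a37, which brings iron into mitochondria, rose in MEFs (0.43) and fell in Hepa1 (-0.76). The ferritin heavy chain gene Fth1 rose in both, by 0.45 in MEFs and 0.09 in Hepa1, and the Hepa1 call was lost without the first or second control or the second ferroptotic library (adjusted p from 0.0609 to 0.172). The light chain gene Ftl1 gave 1.26 and -0.76, but near-identical ferritin copies make its count, at 1.51, 1.61 and 1.83 normalised CPM in MEFs in control medium, uncertain.

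The guards against lipid peroxidation were mixed. Gpx4 changed in neither cell type by the test, with -0.10 in MEFs, -0.02 in Hepa1 and a difference of -0.08 ± 0.07 (adjusted p = 0.425). Acsl4, which loads polyunsaturated fatty acids into the lipids that are peroxidised, fell in MEFs from 62.6, 63.8 and 64.1 to 30.4, 31.8 and 31.9 normalised CPM. Its fall in Hepa1 was smaller, from 111, 119 and 118 to 96.3, 93.6 and 96, and the difference was -0.73 ± 0.06 (adjusted p = 6.78e-14). Mboat1, a phospholipid acyltransferase, fell in MEFs (-1.87) and gave -0.13 in Hepa1, which was not called. Gss, which completes glutathione, rose in MEFs by 0.22 and fell in Hepa1 by 0.81. Over the 24 genes of this list 11 differences were called higher and 6 lower, although the median difference was -0.01, or 0.02 without scaling.

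Other genes up in MEFs and down in Hepa1 encode signalling and surface proteins. Egr1, an immediate early transcription factor of the ERK pathway, stood at 162, 170.0 and 168 normalised CPM in MEFs in control and 277, 295 and 274 in ferroptotic medium. In Hepa1 it stood at 147, 177 and 161 and then 64.8, 67.9 and 75.4. In normalised CPM the control levels of the 2 cell types overlapped and the ferroptotic levels lay on either side of them. The overlap depends on the TMM scaling. Ndrg1, a stress and hypoxia-responsive gene, went from 224 ± 23.5 to 57 ± 5.23 in Hepa1 and from 41 ± 1.37 to 62.9 ± 2.38 in MEFs. Plk2, a kinase induced by p53, rose in MEFs (0.69) and fell in Hepa1 (-1.03). Kitl, the ligand of the KIT receptor, rose from 3.54, 3.6 and 2.42 to 9.8, 9.09 and 8.7 normalised CPM in MEFs and fell from 322, 353 and 325 to 184, 181 and 176 in Hepa1. Slpi, a secreted protease inhibitor, rose from 2.14, 2.38 and 1.59 to 6.95, 7.31 and 7.54 in MEFs and fell from 19.1, 19.4 and 22.9 to 9.75, 9.45 and 9.11 in Hepa1. Gpnmb, a glycoprotein of lysosomes, changed by 0.85 and -0.81. Each of these genes moved without overlap between media in both cell types, which for Kitl, Slpi and Gpnmb was a condition of being named. Itga2, a collagen-binding integrin, and Tenm4, a transmembrane teneurin, had differences of 2.34 ± 0.12 and 3.66 ± 0.17. Egfr, the receptor of epidermal growth factor, and Klf4, a transcription factor, both chosen after their values were seen, also belonged here. Egfr changed by 0.59 in MEFs and -1.04 in Hepa1, and Klf4 by 0.68 and -0.68.

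The nuclear long RNAs Malat1 and Neat1, chosen after their values were seen, were in the same class. Malat1 went from 211, 223 and 205 to 432, 453 and 461 normalised CPM in MEFs and from 51.8, 54.3 and 39.9 to 25.8, 24.5 and 27.3 in Hepa1. Neat1 changed by 1.43 ± 0.06 in MEFs and -0.63 ± 0.16 in Hepa1. The share of reads that fell on no gene moved the same way, from 2.00 to 2.16% up to 2.49 to 2.52% in MEFs and from 2.42 to 2.58% down to 2.30 to 2.33% in Hepa1. Its part in these results was not tested.

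**Figure D2:**
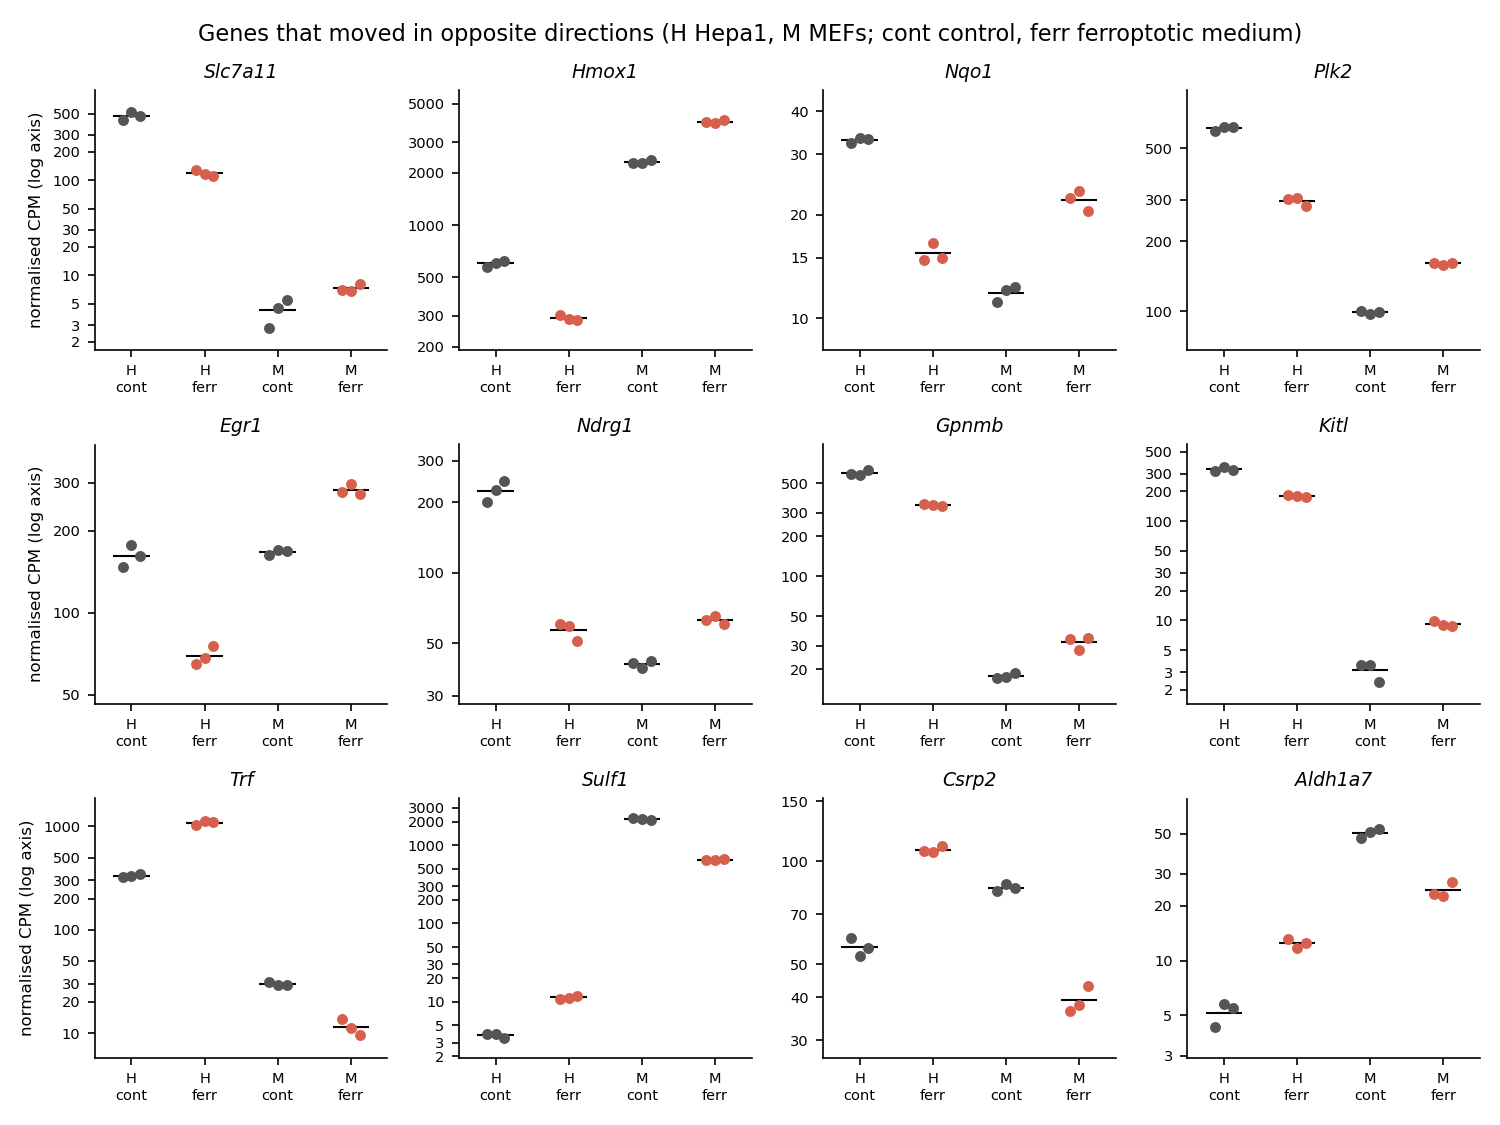
Normalised CPM (log axis) of 12 opposite genes in every library, with grey points for control medium, red points for ferroptotic medium and a bar for the mean of 3. In the first 8 panels the red points lie below the grey in Hepa1 and above them in MEFs, and in Trf, Sulf1, Csrp2 and Aldh1a7 the order is turned around.

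Among the 40 genes that fell in MEFs and rose in Hepa1, Trf encodes transferrin, the plasma iron carrier secreted by hepatocytes (chr9:103204001-103230444, minus strand, GRCm38). Its normalised CPM in Hepa1 were 325, 329.5 and 347 in control and 1030, 1131 and 1117 in ferroptotic medium. In MEFs they were 30.9, 29.2 and 28.9 and 13.8, 11.1 and 9.51. The groups did not overlap in either cell type, a condition of being named, and the difference was -3.09 ± 0.09 (adjusted p = 3.39e-29, edgeR). Trf was the most abundant of the 18 hepatocyte markers, whose summed level in Hepa1 was 503.5 to 519.5 CPM in control and 1669 to 1820 CPM in ferroptotic medium. Alb, encoding albumin, had means of 33.6 CPM in control and 311 CPM in ferroptotic medium, where it was next. The part of these markers in the difference for Trf was not tested.

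Sulf1, which trims sulfate from heparan sulfate and so alters the binding of growth factors, was a fibroblast gene by level. It fell from 2207, 2154 and 2133 to 642, 652 and 664 normalised CPM in MEFs and rose from 3.85, 3.87 and 3.45 to 10.9, 11.3 and 12 in Hepa1. The 2 changes were nearly mirror images, -1.73 ± 0.03 and 1.61 ± 0.10, at levels far apart. Csrp2, a LIM protein of smooth muscle and stellate cells, started closer, from 83.9 ± 2.05 to 39.3 ± 3.45 in MEFs and from 56.1 ± 3.53 to 108 ± 2.48 in Hepa1. In normalised CPM the order of the cell types for Csrp2 was thus turned around in ferroptotic medium. Its order in control medium depends on the TMM scaling. Aldh1a7, an aldehyde dehydrogenase, had a difference of -2.31 ± 0.12, and Bcam, a laminin receptor, one of -1.89 ± 0.20. Of the 40 genes, 70% were expressed higher in MEFs than in Hepa1 over both media in normalised CPM, against 47.4% of all 11059. Without TMM scaling, and in control medium alone, the shares were 72.5% and 26.9%.

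The third Hepa1 library in ferroptotic medium bears on this class. In Lox, a collagen crosslinking enzyme chosen after its values were seen, the 3 Hepa1 libraries in ferroptotic medium gave 0.123, 0.13 and 5.59 normalised CPM and MEFs in control medium gave 7028, 7650 and 7755. The high Hepa1 value was that of the third library. For 24 of the 11059 genes the share of the MEF level seen in that library equalled 10% or more of the mean Hepa1 level in ferroptotic medium, and 9 of them are in classes that need a rise in Hepa1. Without the 24 genes the class held 38 genes, and without the library it held 37.

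Cell cycle genes were the main shared rise, and it was larger in Hepa1. Of 29 genes of the G2 and M phases, 28 rose in MEFs with a median of 1.06, and all 29 rose in Hepa1 with a median of 2.39. The difference was called lower in MEFs for 26 and higher for 0, against 29.4% and 27.2% of all 11059 genes. Mki67, the proliferation marker Ki-67, went from 4.75, 4.04 and 4.13 to 18.2, 19 and 16.6 normalised CPM in MEFs and from 12.9, 10.9 and 8.59 to 64.8, 63.8 and 72.8 in Hepa1. Both cell types separated completely between the media, and the difference was -0.58 ± 0.16 (adjusted p = 0.00228). Ccnb2, cyclin B2, which drives entry into mitosis, went from 1.27, 1.38 and 1.06 to 4.6, 4.44 and 5.03 in MEFs and from 6.51, 4.8 and 4.27 to 41.7, 44.4 and 45.1 in Hepa1, a difference of -1.16 ± 0.25. In bulk RNA more cells in a phase and more RNA per cell cannot be told apart.

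Kif11, the motor that separates the spindle poles, differed more, with 0.81 in MEFs and 2.72 in Hepa1. Cdk1, the kinase that cyclin B activates, was the exception: it fell in MEFs from 22.3, 23 and 20.2 to 18.3, 18.5 and 18.5 normalised CPM and rose in Hepa1 from 66.3, 64.8 and 63.7 to 116, 114 and 124. The difference for Cenpf, a kinetochore protein, was -0.73 ± 0.21, and for Hmmr, a spindle-associated hyaluronan receptor, -0.92 ± 0.27. Both lost their call without the second MEF control library, with adjusted p of 0.0662 and 0.0882. Of 28 genes of S phase and DNA replication, 18 rose in MEFs and 24 in Hepa1, with medians of 0.34 and 0.68. Rrm2, which makes deoxyribonucleotides, rose by 0.53 in MEFs and 1.33 in Hepa1.

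**Figure D3:**
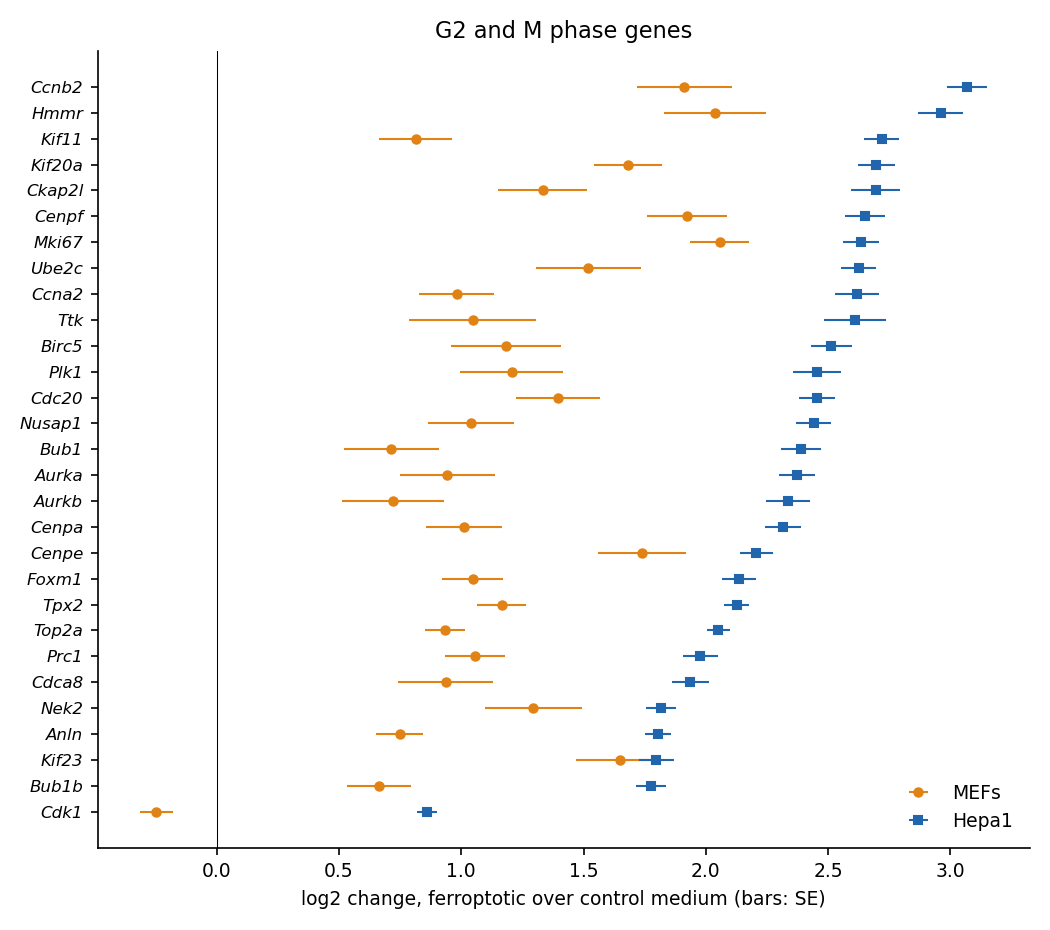
Log2 change in ferroptotic over control medium of the 29 G2 and M phase genes, with 1 row a gene ordered by the change in Hepa1, circles for MEFs, squares for Hepa1 and bars for the SE. All squares lie to the right of their circles, and the circle of Cdk1 at -0.25 is the only one left of 0.

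Promoters of mitotic genes are known for the cell cycle homology region (CHR) and CCAAT boxes, and 2 are printed with the CHR letters TTTGAA, on either strand, in capitals. Both are the 250 bases before the start in RefSeq on GRCm38.p6. The Ccnb2 promoter (chr9:70421555-70421804, minus strand) holds its match 167 bases before the start, and the Kif11 promoter (chr19:37376132-37376381, plus strand) 19 bases before it.
Ccnb2: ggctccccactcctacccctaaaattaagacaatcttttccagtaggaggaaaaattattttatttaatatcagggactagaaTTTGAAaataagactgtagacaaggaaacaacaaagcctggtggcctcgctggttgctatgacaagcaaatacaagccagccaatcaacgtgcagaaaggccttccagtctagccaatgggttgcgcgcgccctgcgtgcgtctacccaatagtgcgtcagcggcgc
Kif11: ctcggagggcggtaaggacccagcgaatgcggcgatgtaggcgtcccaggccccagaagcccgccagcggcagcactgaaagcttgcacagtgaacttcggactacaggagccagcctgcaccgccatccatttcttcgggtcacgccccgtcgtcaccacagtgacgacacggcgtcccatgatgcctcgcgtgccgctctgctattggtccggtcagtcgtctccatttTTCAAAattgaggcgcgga
Of 24 matched promoters of the list 8, or 33.3%, held TTTGAA and 87.5% held CCAAT. The shares were 19.4% and 57.5% of 160 promoters of shared up genes, 10.1% and 37.6% of the promoters of all 11059 genes, and 16.3% and 34.5% of all promoters. Of 188 promoters of genes up in Hepa1 alone, 18.6% held TTTGAA.

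Outside the cell cycle, Steap4, a metalloreductase that reduces iron and copper, had the largest shared rise when genes were ranked by the smaller of their 2 changes. It went from 2.49, 1.72 and 1.83 to 15.3, 17.7 and 17.7 normalised CPM in MEFs and from 1.78, 1.77 and 1.4 to 9.95, 10.0 and 9.55 in Hepa1. Enpp2, the enzyme autotaxin that makes lysophosphatidic acid, rose by 2.49 and 2.73, and its difference of -0.24 ± 0.30 was not called (adjusted p = 0.57). Interferon-induced genes rose in both as well, 18 of 23 in MEFs and 20 of 23 in Hepa1, with medians of 0.29 and 0.68, and 13 differences were called lower in MEFs against 4 higher. Xaf1, an apoptosis-promoting interferon target, rose by 0.47 in MEFs and 1.81 in Hepa1. Ifi44 rose in Hepa1 from 0.423, 0.505 and 0.174 to 2.33, 1.08 and 2.19 normalised CPM and gave -0.26 in MEFs, not called. H2-K1, a class I antigen-presenting molecule, fell by 0.37 in MEFs and rose by 1.14 in Hepa1. Of the 199 shared up genes, 105 had a called difference, in 87 of which the rise was larger in Hepa1, and 36 lay below 1 CPM in MEFs in control medium.

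The 113 shared falls included 4 of 20 YAP and TEAD targets, 5 of 18 FGF and ERK response genes and 5 of 20 NF-kB response genes. Ankrd1, a target of the coactivator YAP, fell from 15.5, 20.5 and 20.2 to 4.43, 4.87 and 3.97 normalised CPM in MEFs and from 236, 264 and 265 to 34.5, 29.9 and 30.6 in Hepa1. Ccn1, a matricellular protein and another YAP target, fell by 1.00 in MEFs and 2.92 in Hepa1. For both the fall was larger in Hepa1, by 0.92 for Ankrd1 and 1.92 for Ccn1 on the log2 scale, each called. At any size, 12 of 20 YAP and TEAD targets fell in MEFs and 18 in Hepa1, and 7 and 1 rose. Of 18 genes of the serum response factor and cytoskeleton list 14 fell in MEFs and 13 in Hepa1, and 0 and 1 rose.

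Several shared falls could not be told apart in size. Junb, an AP-1 subunit, fell from 91.7, 96.1 and 101 to 34, 38.9 and 36.6 normalised CPM in MEFs and from 365, 369 and 416 to 136, 132 and 135 in Hepa1. Its difference was 0.11 ± 0.07 (adjusted p = 0.189). Lcn2, an iron-siderophore carrier of the acute phase, fell by 1.59 and 1.66, and Nr4a1, an immediate early nuclear receptor, by 1.38 and 1.56, with differences of 0.07 ± 0.14 and 0.18 ± 0.12. Bcl3, an atypical inhibitor of NF-kB, fell further in MEFs, by 2.74 against 1.40 in Hepa1. Of the 113 shared down genes 61 had a called difference, in 33 of which the fall was larger in Hepa1 and in 28 larger in MEFs.

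p53 targets and cholesterol genes rose further in MEFs than in Hepa1. Of 26 p53 targets, 21 rose in MEFs with a median of 0.60, 13 rose and 7 fell in Hepa1 with a median of 0.12, and 19 differences were called higher in MEFs against 2 lower. Gdf15, a stress-induced cytokine, went from 8.75, 10.7 and 10.1 to 32.6, 30.4 and 36.8 normalised CPM in MEFs. In Hepa1 it was at 116, 111 and 125 in control and 128, 119 and 121 in ferroptotic medium, where the groups overlapped. Cdkn1a, the cell cycle inhibitor p21, rose from 242, 238 and 240.5 to 466, 457 and 476 in MEFs, and in Hepa1 from 496, 506 and 530.1 to 582, 579.8 and 598, a called but small rise. The difference for Cdkn1a was 0.76 ± 0.05 (adjusted p = 1.57e-17). Trp53inp1, a p53-induced stress protein, rose by 1.39 in MEFs and 0.18 in Hepa1, while Sesn1, a sestrin that restrains mTORC1, rose mainly in Hepa1 (1.32 against 0.13). The rise of Sesn1 in MEFs lost its call on leaving out any of the MEF libraries numbered 2 and 3, with adjusted p from 0.0676 to 0.192.

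Of 20 genes of cholesterol synthesis, 18 rose in MEFs and 10 in Hepa1, with medians of 0.60 and 0.18. The difference was called higher in MEFs for 11 and lower for 1, with a median of 0.27. Hmgcs1, which makes HMG-CoA, went from 46.4, 45.2 and 45.4 to 102, 113 and 93.4 normalised CPM in MEFs and stood at 37.9, 39.9 and 38.1 and 41.2, 41.2 and 39.1 in Hepa1. Its difference was 1.10 ± 0.07 (adjusted p = 8.34e-17). Msmo1, a sterol demethylase, rose in MEFs (1.03) and fell in Hepa1 (-0.48).
The Hmgcs1 promoter is shown for its sterol response element core (chr13:119690101-119690350, plus strand, RefSeq on GRCm38.p6), the 250 bases before the start with the match to TCACNCCAC in capitals, 137 bases before the start.
Hmgcs1: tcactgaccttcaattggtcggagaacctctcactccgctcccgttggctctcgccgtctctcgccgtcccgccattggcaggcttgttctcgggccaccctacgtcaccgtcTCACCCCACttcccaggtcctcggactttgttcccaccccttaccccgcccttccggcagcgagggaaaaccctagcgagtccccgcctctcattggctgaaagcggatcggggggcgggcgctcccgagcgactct
That core, searched on both strands, was in 1 of 15 promoters of the list, that of Hmgcs1 itself, in 0.883% of those of the 11059 genes and in 1.03% of all promoters, and CCAAT was in 93.3% of the 15.

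Other one-sided rises in MEFs included matrix and growth-factor genes. Igfbp3, which binds insulin-like growth factors, went from 10.2, 8.75 and 7.37 to 33.7, 39.1 and 31.7 normalised CPM in MEFs and stood at 50.5, 52.8 and 49.3 and 49.5, 51.8 and 51.7 in Hepa1. Col4a1, a basement membrane collagen, rose in MEFs by 1.34 and by 0.16 in Hepa1. Atf3 and Ddit4, stress-induced genes, had MEF changes of 1.42 and 1.15 and Hepa1 changes of -0.21 and 0.04.

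The largest fall in MEFs alone was that of Tgm2, the crosslinking enzyme transglutaminase 2 (chr2:158116402-158146436, minus strand, GRCm38). It fell from 205, 239 and 235 to 19.9, 19.6 and 22.1 normalised CPM in MEFs. In Hepa1 it stood at 400.3, 379.6 and 389 in control and 335, 340.0 and 347 in ferroptotic medium, a called fall under 1.2-fold. The difference was -3.27 ± 0.07 (adjusted p = 7.19e-35). Ndrg2, a member of the same family as Ndrg1, fell from 32.9 ± 2.46 to 6.78 ± 0.47 in MEFs and gave 65.9 ± 3.19 and 67.5 ± 1.96 in Hepa1. Smoc1, a secreted calcium-binding matrix protein, fell from 241 ± 9.1 to 67.1 ± 1.29 in MEFs and rose from 36.9 ± 1.5 to 42.6 ± 1.59 in Hepa1. Pdk4, which turns cells from glucose to fatty acid oxidation, fell in MEFs by 1.87 and rose in Hepa1 by 0.27, a little above the 1.2-fold limit.

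NF-kB response genes fell mainly in Hepa1. Of 20, 19 fell in Hepa1 and 1 rose, with a median of -0.69, while in MEFs 6 rose and 7 fell around a median of -0.03, which was 0.05 without scaling. The difference was called higher in MEFs for 16 and lower for 2, against 27.2% and 29.4% of all 11059 genes. Relb, an NF-kB subunit, went from 61.8, 57.3 and 61.8 to 26.8, 26.1 and 29 normalised CPM in Hepa1 and from 15.1, 16.3 and 16.3 to 16.9, 20.5 and 19.1 in MEFs. The rise of Relb in MEFs lost its call without the second ferroptotic library (adjusted p = 0.0702). Csf1, the macrophage growth factor, went from 414, 410.4 and 414 to 174, 176 and 173 in Hepa1 and from 584, 589.5 and 593 to 641, 647 and 652 in MEFs. The Csf1 libraries separated downward in Hepa1 and slightly upward in MEFs, with a difference of 1.38 ± 0.05 (adjusted p = 1.26e-27). Vcam1, an adhesion molecule for leukocytes, rose in MEFs (0.89) and fell in Hepa1 (-0.42).

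Nfkb2, the precursor of the p52 subunit, fell from 249, 244 and 261 to 146, 133 and 147 normalised CPM in Hepa1. In MEFs it stood at 53.7, 54.3 and 53 and 60.1, 54.4 and 59.6, which did not overlap and was not called (adjusted p = 0.0601). Its promoter (chr19:46304487-46304736, plus strand, RefSeq on GRCm38.p6) is shown for 2 matches to the NF-kB letters, in capitals. These letters are GGGA and CC with any 4 bases between them. The matches begin 39 and 10 bases before the start, and the latter is read on the strand opposite to the gene.
Nfkb2: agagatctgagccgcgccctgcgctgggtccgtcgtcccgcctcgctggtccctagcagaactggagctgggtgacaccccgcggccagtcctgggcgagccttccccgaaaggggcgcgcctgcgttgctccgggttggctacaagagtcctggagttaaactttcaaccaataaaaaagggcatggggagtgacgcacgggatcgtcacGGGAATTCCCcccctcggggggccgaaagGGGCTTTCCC
On either strand these letters were in 10 of 16 promoters of the list, or 62.5%, in 25.7% of 179 promoters of genes down in Hepa1 alone, in 32.5% of 83 promoters of shared down genes, in 22.2% of those of all 11059 genes and in 17.4% of all promoters.

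Further one-sided falls in Hepa1 included Cd68, a lysosomal membrane protein known as a macrophage marker, from 17.9, 20.7 and 23.8 to 3.03, 3.08 and 2.67 normalised CPM, while MEFs stood at 2.38, 3.88 and 2.65 and 2.85, 2.71 and 3.27. The 10 macrophage and leukocyte markers, Cd68 included, summed to 43.2 to 48.8 CPM in Hepa1 in control and 19.9 to 23.8 CPM in ferroptotic medium. Of these, Itgam, Ptprc, Tyrobp and Aif1 had 0 reads in both Hepa1 groups. Bhlhe40, a transcription repressor of the clock, fell by 2.07 in Hepa1 and gave -0.10 in MEFs. Sox4, a progenitor transcription factor, fell by 1.46 in Hepa1 and rose by 0.22 in MEFs. Sqstm1, the autophagy receptor p62, fell by 0.81 in Hepa1 and rose by 0.15 in MEFs.

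Among one-sided rises in Hepa1, Gpam, which starts triglyceride synthesis, went from 14.8, 15.3 and 15.1 to 105, 120.2 and 114 normalised CPM, against 63, 58.7 and 67.1 and 58, 57 and 56.8 in MEFs. In ferroptotic medium Hepa1 lay above MEFs for Gpam, and in control medium below. Igfbp4, another binder of insulin-like growth factors, went from 181 ± 8.85 to 521 ± 18.9 in Hepa1 and from 3279 ± 27.7 to 2922 ± 52.4 in MEFs. Gstt1, a glutathione transferase, rose in Hepa1 by 2.39 and gave -0.06 in MEFs. Col1a2, a chain of type I collagen, had the largest difference in this class, -3.59 ± 0.67, from Hepa1 values of 0.942, 0.824 and 14.9 normalised CPM in ferroptotic medium. It was -0.92 without the third of these libraries (adjusted p = 0.0125), and the Hepa1 change was then 0.71 (adjusted p = 0.0589). Without that library the class held 232 genes.

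**Figure D4:**
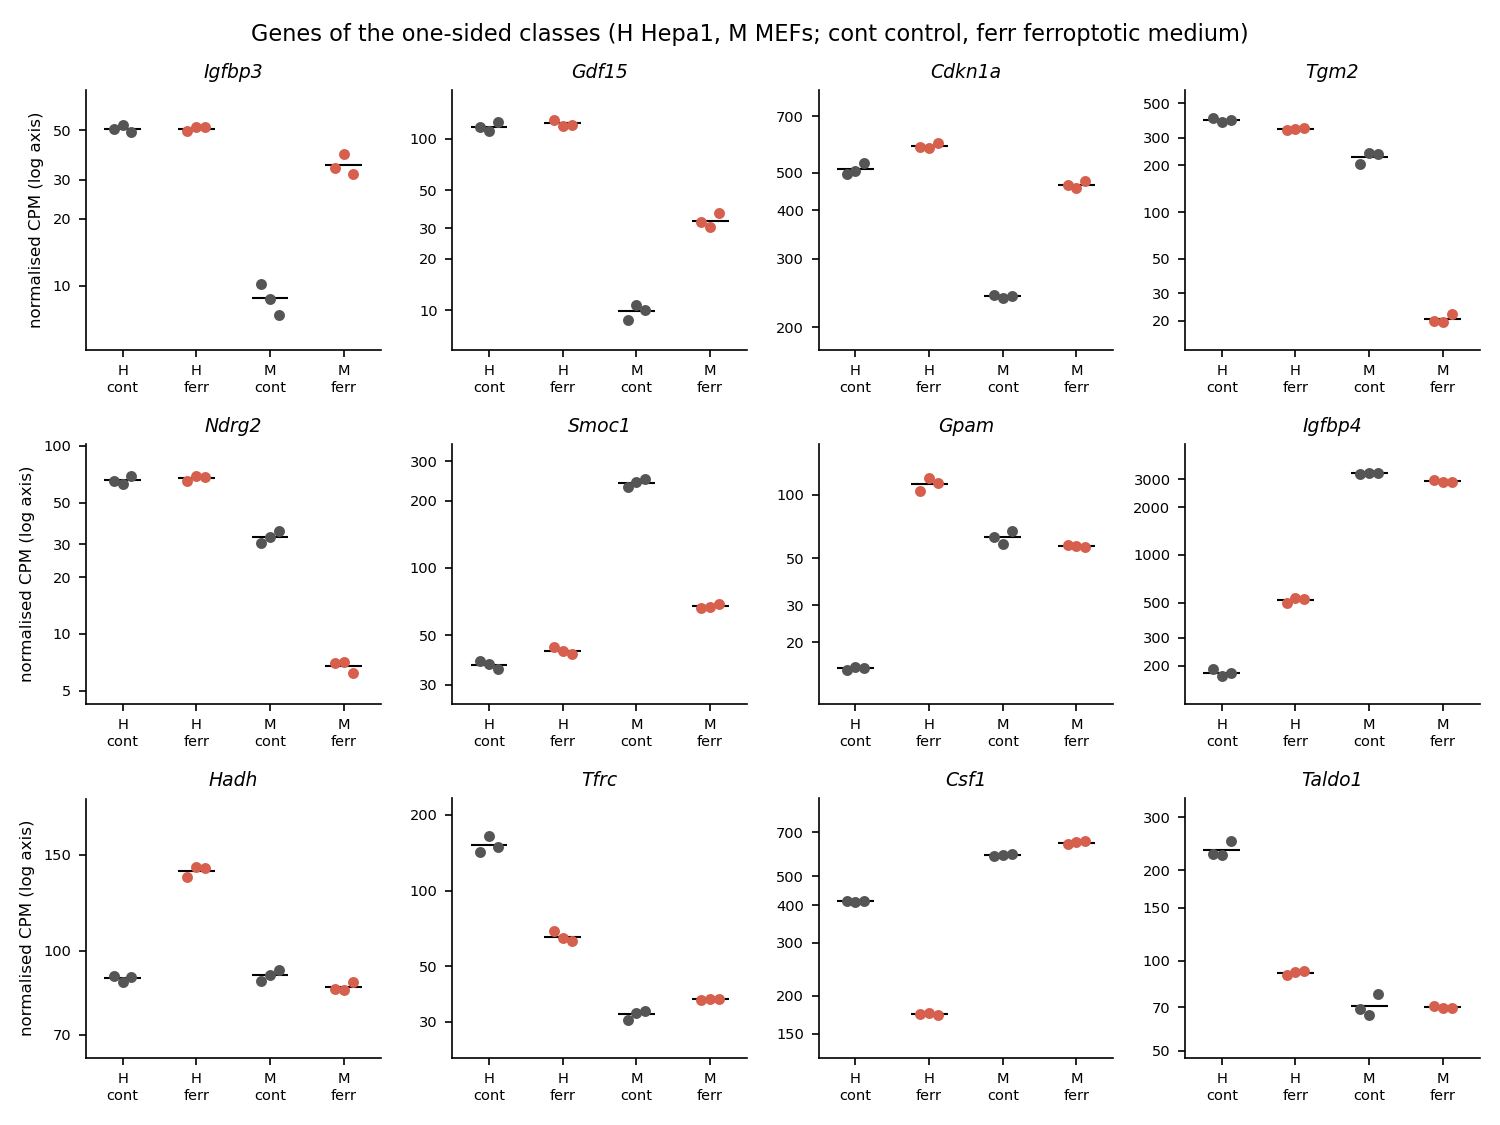
Normalised CPM (log axis) of 12 one-sided genes in every library, with grey points for control medium, red points for ferroptotic medium and a bar for the mean of 3. Igfbp3, Gdf15, Cdkn1a, Tgm2, Ndrg2 and Smoc1 move mainly in MEFs, and the other 6 panels move mainly in Hepa1.

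Mitochondrial and fatty acid genes gave small shifts in the 2 directions. Of 30 nuclear genes of oxidative phosphorylation, 28 rose in Hepa1 (median 0.27) and 12 fell in MEFs (median -0.08), and 27 differences were called lower in MEFs. Without scaling beyond the library totals the MEF counts became 5 higher and 8 lower, with a median of -0.0036, and 26 differences were called lower. Atp5c1, a subunit of ATP synthase, went from 74, 75 and 70.3 to 104, 111 and 114 normalised CPM in Hepa1 and from 122, 117 and 115 to 109.9, 110.4 and 109.7 in MEFs. Of 26 genes of fatty acid oxidation and PPARA, 17 rose and 1 fell in Hepa1 and 3 rose and 15 fell in MEFs, the latter becoming 5 and 8 without scaling. Hadh, an enzyme of beta-oxidation, rose in Hepa1 from 88.9 ± 1.19 to 140.3 ± 3.31 and gave 90.0 ± 2.15 and 85.7 ± 1.69 in MEFs. Acaa2, which ends that cycle, rose in Hepa1 by 0.56 and fell in MEFs by 0.28.

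Most cytosolic ribosomal protein genes fell in MEFs. Of 38, 31 fell in MEFs and 17 in Hepa1, with medians of -0.37 and -0.10, and 27 differences were called lower; pseudogene copies make single counts uncertain. Of 30 mitochondrial ribosomal protein genes 19 rose in Hepa1 and 9 fell in MEFs, which became 4 without scaling, and 20 differences were called lower. Genes of the unfolded protein response fell in MEFs for 16 of 22 and moved both ways in Hepa1, with 8 higher and 8 lower. ATF4 targets showed no common direction in either cell type. Among them Ddit3, the stress factor CHOP, rose in MEFs (0.87) and fell in Hepa1 (-0.41), and Psat1, an enzyme of serine synthesis, fell in MEFs (-0.36) and rose in Hepa1 (0.60). Collagens and matrix genes included Thbs1, a matricellular activator of TGF-beta, which fell in MEFs (-0.89) and rose in Hepa1 (0.45), and Tnc, tenascin C, which did the reverse (0.30 and -1.33). Lysosome and autophagy genes had 18 of 32 differences called higher and 6 lower in MEFs.

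Of 18 FGF and ERK response genes, 12 fell and 4 rose in Hepa1, 7 fell and 5 rose in MEFs, and 10 differences were called higher in MEFs against 2 lower. Without scaling 9 rose in MEFs. The median difference of this list was 0.19. Dusp6, the phosphatase that switches off ERK, rose in MEFs (0.39) and fell in Hepa1 (-0.41). Ier3, an immediate early gene, fell in both, by 1.15 and 2.05. Of 14 TGF-beta response genes 11 fell in MEFs and 9 in Hepa1, with 8 differences called higher and 3 lower. Among 17 clock genes 9 fell in each cell type, or 5 in MEFs without scaling, and Dbp, an output gene of the clock, rose in Hepa1 (0.98) against -0.11 in MEFs.

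Of 17 genes of class I presentation 8 rose in MEFs and 10 in Hepa1, with 3 differences called higher and 8 lower in MEFs. Psmb8, a subunit of the immunoproteasome, rose in Hepa1 (0.85) and gave -0.22 in MEFs, not called. Of 15 matrix proteases and inhibitors 5 differences were called higher and 7 lower. Adamts1, a matrix protease, fell in Hepa1 (-1.40) and gave 0.05 in MEFs, not called, while Timp3, an inhibitor of such enzymes, rose in MEFs (0.97) and gave 0.04 in Hepa1, not called. Of 14 heat shock chaperones 8 differences were called higher and 1 lower; the latter was Hsph1, which fell in MEFs (-0.82) and gave 0.05 in Hepa1, not called. The counts were 9 and 3 of 22 for glycolysis and hypoxia, 5 and 6 of 20 for aminoacyl-tRNA synthetases, 6 and 11 of 20 for collagens and matrix, 10 and 7 of 23 for ATF4 targets and 5 and 6 of 13 for senescence-linked secreted factors. In the last list Igfbp2 and Cxcl12 are among the 9 genes that the third Hepa1 ferroptotic library bears on. The difference was called lower in MEFs for 5 of 8 fibroblast markers and higher for 1. Of these markers, Col1a2 and Col3a1 are among the 24 genes open to RNA of the other cell type. Their Hepa1 changes were 3.377 and 1.225. The collagen genes Col5a2 and Col6a1 are among the 24 as well. Over all 11059 genes 27.2% of differences were called higher and 29.4% lower, and the counts for aminoacyl-tRNA synthetases lie near these shares.

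**Figure D5:**
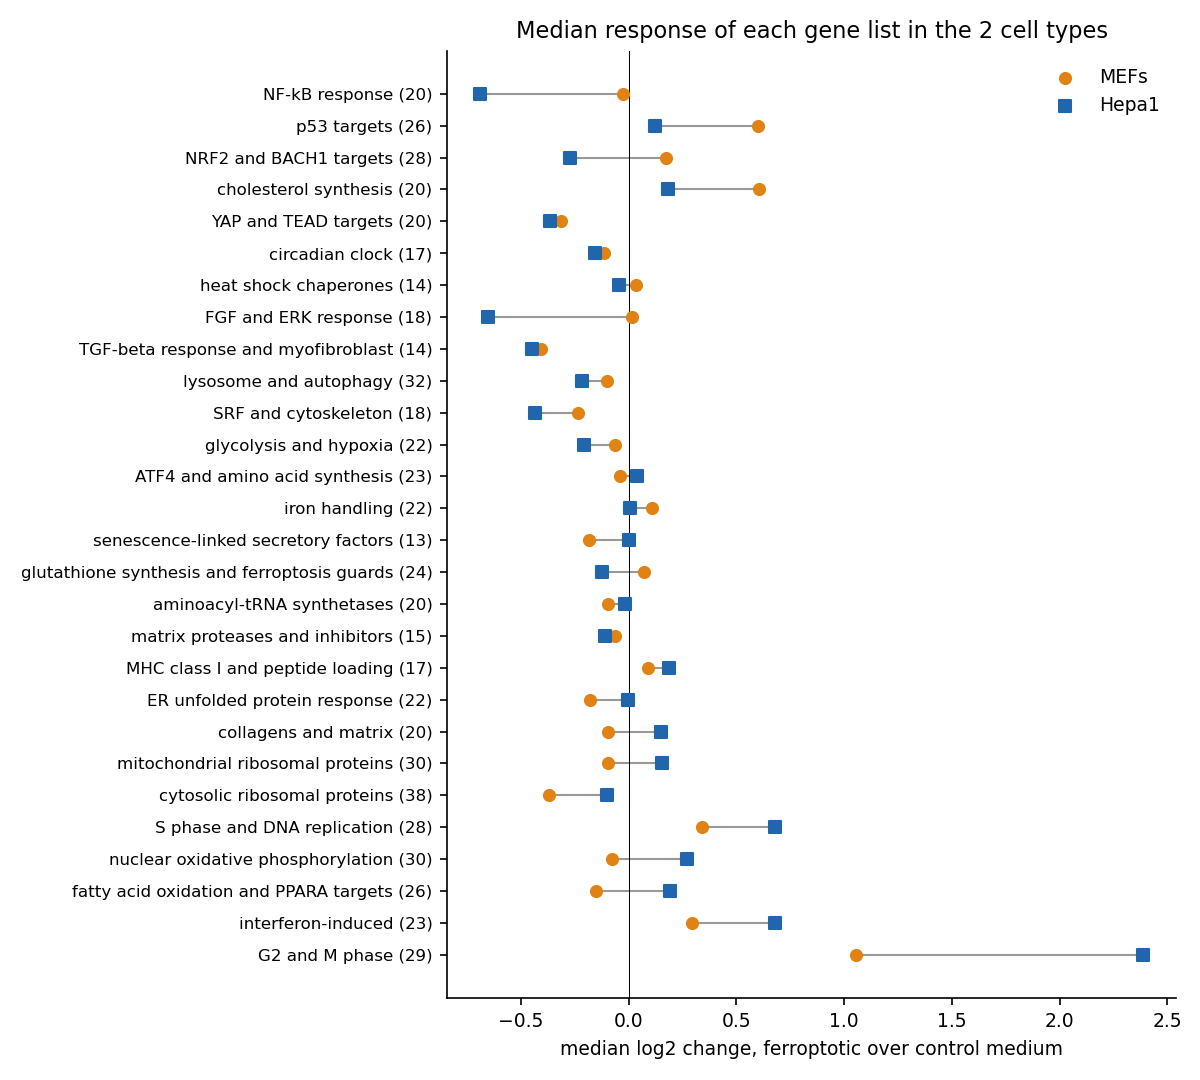
Median log2 change in ferroptotic over control medium of 28 gene lists in the order of their median difference, with the number of genes in brackets, circles for MEFs, squares for Hepa1 and a line joining them. G2 and M phase genes stand apart at 1.06 in MEFs and 2.39 in Hepa1. In the other direction the medians lie furthest apart for FGF and ERK (0.01 and -0.65) and NF-kB genes (-0.03 and -0.69). The median difference was 0.69 for NF-kB genes but only 0.19 for FGF and ERK genes. It was larger for p53 targets (0.54) and NRF2 and BACH1 targets (0.50).

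The classes also differed in level. Shared up genes were low in MEFs, with a median of 3.93 normalised CPM over both media against 33.8 for all 11059 genes, and 36.2% of them were higher in MEFs than in Hepa1. Of the genes up in Hepa1 alone 62.8% were higher in MEFs. Without TMM scaling, and in control medium alone, these shares were 30.2% and 58.1%, against 26.9% of all 11059 genes. With members held to 10 CPM in both cell types, 32 shared up and 51 shared down genes were left, so the order of these 2 classes by size turned around. Of the 170 genes named by the rule in the methods, 77 share bases with an annotated gene of the opposite strand, among them Slc7a11, Mki67, Kif11, Tgm2, Hmgcs1, Nfkb2, Vcam1 and Gpam, and reads of such pairs were not told apart.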

How the data were processed

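Raw counts of reads in each Ensembl gene were deposited by the authors, both as single files and as a joint table, and 0 values differed between these. HTSeq 0.9.1, STAR 2.7.10a, Trimmomatic 0.39 and FastQC 0.11.9, with the mouse build GRCm38, are named in the submitters' processing notes. Neither the strand setting of the counting nor the gene annotation's release is given in the sources used here, and the library kit is named with no word on strand. Reads on no gene (2.00 to 2.58%) and ambiguous reads (3.66 to 4.03%) stayed out of library sizes and tests. GENCODE M21 named 55227 identifiers and left 260 without a name.

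Groups came from the sample titles. One edgeR 4.0.16 model (R 4.3.3; filterByExpr, TMM scaling, 1 mean per group) covered all 12 libraries and was tested by quasi-likelihood F, with p-values adjusted by Benjamini-Hochberg over 15627 genes for each contrast. The biological coefficient of variation was 2.89%. Normalised CPM are counts over the TMM-scaled library size. SE are the log2 change over the square root of F. Floors cover counting error only. No 2 libraries of a group agreed within sampling noise. The scripts were tested on simulated data.

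Members and gene lists were chosen with earlier results of these data known, and lists are described by counts and medians, with no set test. The rule for named genes takes, among protein-coding genes whose groups do not overlap in the responding cell type, 10 genes of each shared and opposite class by the smaller change, 6 of each one-sided class by the difference, up to 4 of each list by the smallest p of the difference, and 12 fixed genes. Genes named outside it were chosen after their values were seen. Some genes the rule takes are not reported here. Alternatives were DESeq2 1.42.0 (size factors and Wald test), no scaling, limma-voom 3.58.1, separate fits, other filters and limits, a replicate block and each library left out.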

Additional observations from a re-analysis of the deposited data

Results flagged for a closer look

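In each of these 25 genes the response was called in both cell types in different directions, and the difference itself, MEFs minus Hepa1 on the log2 scale, was called in edgeR. In 15 genes MEFs rose and Hepa1 fell. The difference was 3.66 for Tenm4, 3.47 for Reps2, 2.94 for Slpi, 2.85 for Serpinb9b, 2.79 for Slc7a11 and 2.60 for Ndrg1. It was 2.41 for Kitl, 2.34 for Itga2, 2.30 for Slc43a2, 2.00 for Nqo1 and 1.98 for Egr1. The smaller ones were 1.81 for Ldlrad3, 1.81 for Hmox1, 1.72 for Plk2 and 1.66 for Gpnmb.

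In 10 genes MEFs fell and Hepa1 rose. The difference was -3.34 for Sulf1, -3.09 for Trf, -2.99 for B3gnt3, -2.90 for Rbm20 and -2.31 for Aldh1a7. It was -2.04 for Csrp2, -1.95 for Pstpip2, -1.94 for Lurap1l, -1.89 for Bcam and -1.87 for Agap2. These genes were picked for opposite responses, so their number says nothing further. B3gnt3 and Rbm20 were low in Hepa1 in control medium, with means of 0.79 and 0.71 normalised CPM.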

How the results depend on the processing

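Of 3399 values of the difference, for 170 genes under 20 alternatives, 3358 kept their direction and their side of the threshold. Of the rest 19 lost the call, 7 gained it and 15 changed sign. Most of these genes were picked by their values in the same fit, many by the difference itself. Much of this stability was thus set in advance, and it does not speak for all called differences. On leaving out a library 2809 to 2948 differences were called higher in MEFs and 3035 to 3234 lower, against 3009 and 3254. The sign changes were all in 2 genes that were never called. With a library left out Lcn2 ranged from -0.024, without the first MEF control library, to 0.156. Slc20a1 ranged from -0.131 to 0.124 with a library left out, and gave 0.0084 with DESeq2 size factors, 0.025 without scaling, 0.0063 in the DESeq2 Wald test, 0.013 in limma-voom, 0.0036 with a CPM filter and 0.00082 with the replicate block. Changes of size or level limits moved the class counts by construction. The order in each list below is MEFs up and down, Hepa1 up and down, shared up and down, opposite with MEFs up and with MEFs down, MEFs alone up and down, and Hepa1 alone up and down. With at least 2-fold they were 168, 132, 302, 151, 62, 27, 3, 4, 26, 38, 68 and 43. With no minimum size they were 2742, 3109, 3337, 3505, 1057, 1199, 856, 865, 574, 745, 988 and 1020. With members at 10 CPM or more they were 198, 226, 247, 342, 32, 51, 25, 12, 86, 98 and, for Hepa1 alone up, 129. Scaling moved the class counts as well. Without scaling beyond the library totals they were 692, 338, 830, 468, 229, 86, 48, 34, 220, 122, 305 and 184. Of the genes reported as down in MEFs alone 69.5% then stayed in that class. The share was 70.7% for down in Hepa1 alone, 76.1% for shared down and 100% for shared up. With a library left out shared up held 186 to 215 genes and the opposite classes 44 to 50 and 32 to 42. Deviations of the same replicate number correlated at -0.02 to 0.04 between media, and those of different numbers at -0.03 to 0.02. These values cannot decide whether the replicate numbers pair the samples. The fit with the replicate block called 2998 differences higher and 3228 lower. Leaving out the 24 genes open to RNA of the other cell type, an alternative chosen after seeing the data, left 248 genes up in Hepa1 alone and 38 down in MEFs and up in Hepa1. Depth sets a floor of 3 reads per library, and how well differences near it were detected was not tested.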
